A study of Mus musculus with 4 samples.

Results

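The genes described here are 28 endothelial genes whose mRNA the study followed by RT-qPCR in endocardial cells of mice that overexpress the microRNA miR-187, out of 21883 protein-coding genes on the mouse chromosomes. The study's list is longer by another gene, which is not analysed here. For every gene, each ATAC-seq peak was taken whose summit lay inside the gene or within 20 kb of either gene boundary, and such a peak is called a window peak. ATAC-seq cuts open chromatin with a transposase and sequences the fragments, so a peak marks a stretch of DNA that was accessible in the cells. The libraries came from hearts of mice on postnatal day 0, and there was 1 peak list for each library. In 2 libraries the mice were wild type (WT). In the other 2 (miR-187) the mice carried a CRISPR knock-in at Rosa26 on a C57BL/6J background, a transgene of the microRNA under the endothelial Tek (Tie2) promoter and enhancer. The study gives the ATAC-seq mice as homozygous for the knock-in (KI/KI), while the labels do not give the zygosity. According to the study's methods, endothelial cells had been captured on beads against CD31, while the labels name only heart tissue. Nothing in the labels says whether replicates came from separate litters or pools of hearts, so a p-value here measures only the spread between these libraries.

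Endothelial cells line the endocardium and every vessel of the heart, and some endocardial cells turn into mesenchyme to build the valves and septa. The 28 genes cover several steps of that biology. Receptors such as Flt1 and Acvrl1 receive VEGF and BMP signals, Tie1 is a partner of the angiopoietin receptor Tek, cadherins and integrins hold cells to each other and to matrix, secreted proteins such as Edn1, Sparc and Thbs1 act on neighbouring cells, and transcription factors such as Hhex, Nr2f2 and Sox18 act in the development and specification of vessels.

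The WT lists held 9452 peaks (replicate 1) and 12298 peaks (replicate 2), and the miR-187 lists held 7496 and 1483. Read totals were not used here. A background read density inferred from the peak values was 1751 and 5227 reads per Mb in the WT libraries and 2016 and 1032 in the miR-187 libraries, so WT replicate 2 was 5.06 times as dense as miR-187 replicate 2. Depth was thus not matched between or within the groups, and values after thinning to the lowest density are given below beside the counts of genes and of window peaks. Of 18 other endothelial genes (among them Tek, Kdr and Pecam1), 12, 14, 13 and 2 had a window peak in these libraries in the same order, and of 18 cardiomyocyte genes 7, 8, 9 and 0 did. Pecam1, which encodes CD31, had a window peak in both WT lists and in miR-187 replicate 1. The remaining lists gave 4, 5, 3 and 0 of 8 fibroblast genes, 2, 1, 0 and 2 of 6 smooth muscle and pericyte genes, 4, 2, 2 and 0 of 6 immune genes, 1, 1, 0 and 0 of 6 erythroid genes and 10, 14, 7 and 2 of 15 housekeeping genes. The part of other cell types in the values at the 28 genes was not tested.

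RefSeq promoter sequence was at hand for 18 of the 28 genes, in 20 windows that run from 250 bases before the start site to 50 after it. The 4 printed here are those of Axl and Ptpn1, where a peak of each group overlapped the window, and of Tie1 and Hhex, where a single list had one. Each runs 5′ to 3′ over the 250 bases before the start (build GRCm38.p6): Axl at chr7:25788734-25788983 on the minus strand, Ptpn1 at chr2:167932077-167932326 on the plus strand, Tie1 at chr4:118489850-118490099 on the minus strand and Hhex at chr19:37434591-37434840 on the plus strand. Capitals mark every match on either strand to 8 short motifs. These were AGGAAG and its variant with the letters CGGAAG for ETS factors, GGGCGG for KLF and SP factors, AACAAT for SOX factors and AGATAA for GATA factors. The others were TATAAA for the TATA box, TGACTCA for AP-1 and TAAAAATA for MEF2 factors. The motifs were counted one by one, and no overlap between them was removed.
Axl: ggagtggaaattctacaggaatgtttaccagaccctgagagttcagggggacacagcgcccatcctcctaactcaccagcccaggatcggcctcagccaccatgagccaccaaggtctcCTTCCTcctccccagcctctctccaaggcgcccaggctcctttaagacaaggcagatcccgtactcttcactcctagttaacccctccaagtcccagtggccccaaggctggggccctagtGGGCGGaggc
Ptpn1: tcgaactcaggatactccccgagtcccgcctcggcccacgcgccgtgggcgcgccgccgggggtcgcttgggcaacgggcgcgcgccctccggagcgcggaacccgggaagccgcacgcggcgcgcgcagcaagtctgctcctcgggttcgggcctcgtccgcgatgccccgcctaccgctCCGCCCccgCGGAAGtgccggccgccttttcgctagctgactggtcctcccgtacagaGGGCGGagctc
Tie1: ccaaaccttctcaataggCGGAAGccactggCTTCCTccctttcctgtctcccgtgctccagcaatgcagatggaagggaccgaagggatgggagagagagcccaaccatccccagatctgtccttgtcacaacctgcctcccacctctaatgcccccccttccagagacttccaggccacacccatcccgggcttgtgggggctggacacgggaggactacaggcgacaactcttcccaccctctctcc
Hhex: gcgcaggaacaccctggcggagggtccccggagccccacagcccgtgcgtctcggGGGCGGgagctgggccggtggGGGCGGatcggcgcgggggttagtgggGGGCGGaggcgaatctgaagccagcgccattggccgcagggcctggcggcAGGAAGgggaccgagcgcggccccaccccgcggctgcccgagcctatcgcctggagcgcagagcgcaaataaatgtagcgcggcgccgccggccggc
The Tie1 stretch held CGGAAG from base -232 and the reverse complement of AGGAAG from base -219, counted back from the start site. In Axl the reverse complement of AGGAAG began at base -131 and GGGCGG at base -10. The Ptpn1 stretch held CGGAAG from base -60, GGGCGG from base -11 and the reverse complement of GGGCGG from base -69. In Hhex, AGGAAG began at base -97 and GGGCGG at bases -195, -174 and -147. Only the 250 bases before the start were searched. Over these stretches of the 20 windows, AGGAAG was in 8 and CGGAAG in 4, while 29.5% and 13.6% of all 32851 promoter stretches of the same length held them. GGGCGG was in 10 (32.7% of all), TATAAA in 4 (12.4%), AACAAT in 1 (9.42%), TGACTCA in 1 (4.46%), AGATAA in 0 (9.99%) and TAAAAATA in 0 (2.45%). A match is a stretch of letters and does not show that a factor was bound.

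Of the 28 genes, 26 had a window peak in at least 1 list, where 64.6% of all protein-coding genes had one. Bmp6, a BMP ligand, and Apold1, an early-response gene of endothelium, had none in any list. WT replicate 1 had a window peak at 14 genes (50.0%, 95% Wilson interval 32.6 to 67.4, counting error only), where 45.2% of all protein-coding genes had one. WT replicate 2 had one at 25 genes (89.3%, 72.8 to 96.3) against a background of 53.8%. Of the miR-187 lists, replicate 1 had 13 genes (46.4%, 29.5 to 64.2) against 40.3%, and replicate 2 had 7 genes (25.0%, 12.7 to 43.4) against 8.83%. The shares in WT replicate 1 and miR-187 replicate 1 lay close to those of all genes. The share in WT replicate 2 was 35.5 points above its background and that in miR-187 replicate 2 was 16.2 points above. For the housekeeping genes the shares were 66.7% and 93.3% in the WT lists and 46.7% and 13.3% in the miR-187 lists. For the other endothelial genes they were 66.7%, 77.8%, 72.2% and 11.1% in the same order. The 28 genes are longer than most, with a median length of 29.2 kb against 17.2 kb for all protein-coding genes, and a longer gene has a longer window. Per Mb of window there were 6.63, 12.5, 5.16 and 1.72 peaks at the 28 genes against 5.64, 7.63, 4.62 and 0.831 at all protein-coding genes, in the same order of libraries.

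**Figure D1:**
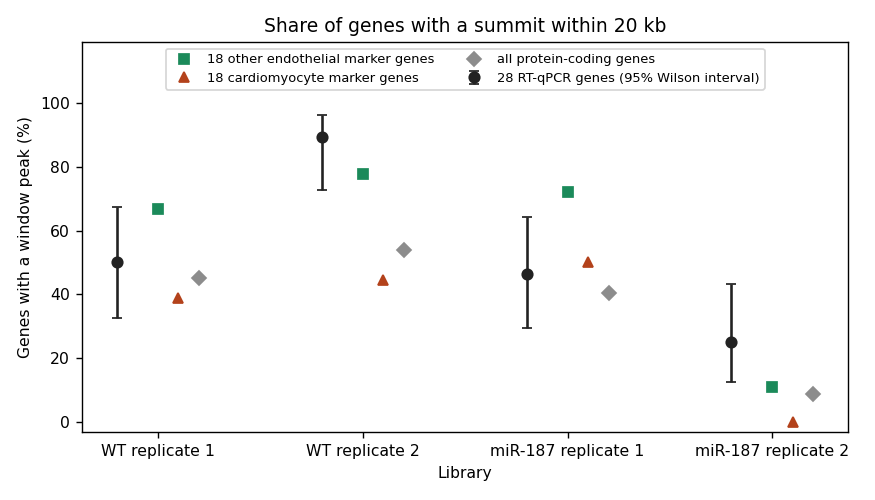
Each point is the percentage of genes with a window peak (y axis) in 1 library (x axis), for the 28 RT-qPCR genes with 95% Wilson intervals, 18 other endothelial genes, 18 cardiomyocyte genes and all protein-coding genes. The 28 genes stand at 50.0%, 89.3%, 46.4% and 25.0%, and only in WT replicate 2 and miR-187 replicate 2 does the interval lie above the value for all genes.

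On average a WT list reached 19.5 ± 7.8 of the genes and a miR-187 list 10.0 ± 4.2 (mean ± SD over 2 libraries), a difference of -9.5 (2-sided exact permutation p = 0.333, the smallest that 2 libraries against 2 allow). Window peaks numbered 27 and 51 with WT and 21 and 7 with miR-187, which differ by -25.0 on average (exact permutation p = 0.333). Both WT values were above both miR-187 values, by a margin of 1 gene between WT replicate 1 and miR-187 replicate 1. When every library was thinned to the lowest background density, the WT libraries were expected to keep a window peak at 11.9 and 7.15 genes and the miR-187 libraries at 9.57 and 7, a difference of -1.23. The difference in window peaks was then -2.03. Depth was not matched between the libraries, and fewer open cells and less open chromatin per cell cannot be told apart in bulk libraries. Which of these the differences reflect was not tested. With an equal number of peaks per list, both differences turned, to 1.5 more genes and 1.5 more window peaks in miR-187. Relative to the share of all genes in the same list, WT stood 20.1 ± 21.7 points higher at the 28 genes and miR-187 stood 11.1 ± 7.1 points higher (mean ± SD over 2 libraries), and this difference of -8.98 points was within the spread of the WT pair (exact permutation p = 1). It turned to 6.86 points with equal lists, to 1.48 points with a 50 kb window and to 6.35 points without WT replicate 2.

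The 4 lists together held 106 window peaks at the 28 genes, in 77 separate regions once peaks sharing at least 1 bp were joined. Of the 106 summits, 23 (21.7%) lay within 1 kb of a gene boundary, 46 (43.4%) lay deeper inside a gene and 37 (34.9%) lay further out in the flanks. Over all pairs of a protein-coding gene and a window peak these shares were 34.6%, 19.3% and 46.1%, at genes with a shorter median length. WT replicate 1 had a boundary peak at 5 genes (21.0% of all protein-coding genes had one) and WT replicate 2 at 11 (29.9% of all). Each miR-187 list had one at 3 genes, against 19.4% of all genes for replicate 1 and 3.07% for replicate 2. Thus 13 of the 28 genes had a boundary peak in some list (38.1% of all genes did), and another 13 had window peaks only further than 1 kb from both gene boundaries (26.6% of all genes). Of the latter, Mef2c, Ptpn1 and Stard13 had a summit within 1 kb of a start site listed inside the gene. For 86 of the 106 peaks the RT-qPCR gene was the nearest protein-coding gene, and for 20 another gene was nearer. For 4 genes (Cadm4, Loxl2, Sox18 and Hey1) every window peak lay nearer to another gene.

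**Figure D2:**
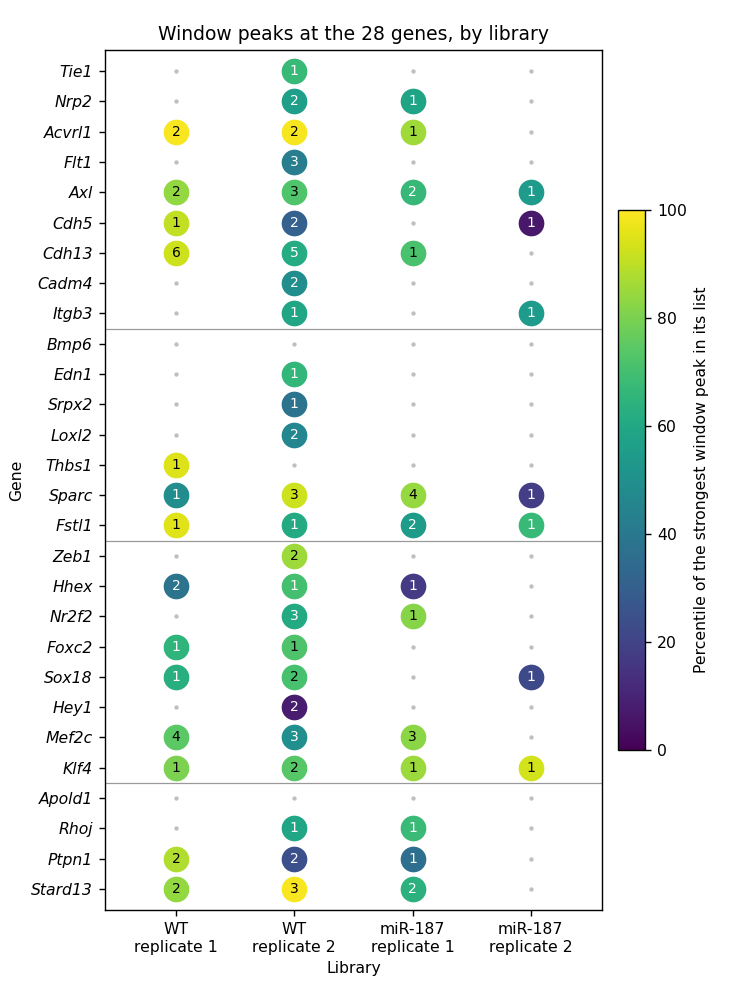
Rows are the 28 genes ordered by role, columns the 4 libraries. The number in a circle counts the window peaks, the colour gives the percentile of the strongest one among all peaks of its list (100 is the highest −log10 q), and a small dot means no window peak. WT replicate 2 fills 25 of 28 rows and miR-187 replicate 2 fills 7.

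The 9 receptors and adhesion molecules had a window peak at 4, 9, 4 and 3 genes, in lists that reached 45.2%, 53.8%, 40.3% and 8.83% of all genes. WT replicate 2 held all 9. Acvrl1, the endothelial receptor for BMP ligands whose loss causes hereditary haemorrhagic telangiectasia, carried the highest-ranked WT replicate 1 peak of the whole set. It lay 296 bp above the upper gene boundary, in chr15:101145384-101145949, with a fold enrichment over background of 8.33 and rank 86 of 9452. WT replicate 2 had a fold of 7.89 there (rank 176 of 12298) and miR-187 replicate 1 a fold of 6.58 (rank 1062 of 7496), and miR-187 replicate 2 had no peak. As percentiles of their own lists these are 99.1, 98.6 and 85.8. The lists differ in length, so the percentiles place the site within each list and do not measure a change between groups. The inferred number of reads over the summit (pileup) was 20, 29 and 14. Acvrl1 had 2 further peaks, each in 1 WT list. One of replicate 2 lay 15152 bp below the gene and nearer to Ankrd33 (fold 7.20, percentile 86.5), and one of replicate 1 lay 9755 bp above the gene with a pileup of 5 reads (fold 4.44, percentile 17.7).

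Cdh5 encodes VE-cadherin, the adhesion molecule of endothelial junctions. A region at its lower boundary, chr8:104101391-104101791, had a peak in 3 lists. The fold was 6.35 in WT replicate 1 (percentile 90.8), 3.95 in WT replicate 2 (percentile 30.8) and 4.29 in miR-187 replicate 2 (percentile 6.44), and miR-187 replicate 1 had none. The percentiles of the WT pair lay far apart, and the lists differ in length, so these percentiles do not measure a change between groups. The miR-187 replicate 2 peak rests on a pileup of 5 reads. WT replicate 2 had another Cdh5 peak 4789 bp below the gene (fold 3.94, percentile 26.1).

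Axl, a receptor tyrosine kinase for Gas6, had window peaks in all 4 lists, but no single region was shared by more than 2. At the promoter printed above, WT replicate 2 had a peak 81 bp before the start with a fold of 4.14 (percentile 14.2), and miR-187 replicate 2 had one 132 bp before it with a fold of 5.56 (percentile 54.3). WT replicate 1 had its strongest peak at chr7:25802330-25802631 (fold 6.25, percentile 83.6), which is 4 bp from Cyp2s1, and miR-187 replicate 1 had a separate one inside Cyp2s1 (fold 5.75, percentile 66.8). At the other side of the window, a region inside Hnrnpul1 had a fold of 4.09 in WT replicate 2 and 4.23 in miR-187 replicate 1, and WT replicate 2 had another peak there 292 bp from the lower boundary of Axl (fold 4.80, percentile 72.3). The last Axl peak was intragenic, 1692 bp after the start in WT replicate 1 (fold 4.64, percentile 26.2).

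Cdh13, or T-cadherin, spans 1184913 bp and had the most window peaks, 6, 5, 1 and 0 in the 4 lists. Only 2 of its 10 regions were in more than 1 list. Within the gene, chr8:118679429-118679745 had a fold of 6.41 in miR-187 replicate 1 (percentile 71.4) and 4.41 in WT replicate 1 (percentile 17.7). In the flank, chr8:119344312-119344840 had a fold of 7.22 in WT replicate 1 (percentile 92.3) and 5.30 in WT replicate 2 (percentile 61.6) with no miR-187 peak, and it lies inside Hsbp1. Of the 6 peaks in WT replicate 1, 4 had a pileup of 5 reads, the lowest of any window peak in that list, and another inside the gene had a pileup of 6 (fold 5.15, percentile 42.4). The 4 intragenic peaks of WT replicate 2 had folds of 3.64 to 5.50, and the weakest of them was at percentile 0.516.

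The other 5 receptors and adhesion molecules were called in 1 or 2 lists. Tie1, a receptor tyrosine kinase of the angiopoietin system, had 1 peak, in WT replicate 2, whose summit lay 29 bp before the start site printed above (fold 6.25, percentile 67.4). Nrp2, a co-receptor for VEGF and semaphorins, had peaks 73 bp after and 2074 bp before its start in WT replicate 2, and the second region also had a peak in miR-187 replicate 1 (fold 5.42 against 4.50). Itgb3, the integrin beta chain that binds vitronectin and fibrinogen, had a boundary peak in WT replicate 2 (fold 5.16) and in miR-187 replicate 2 (fold 5.56). At Flt1, a VEGF receptor, all 3 peaks were intragenic, came from WT replicate 2 and had percentiles of 42.1 or lower. Cadm4, a cell adhesion molecule of the immunoglobulin superfamily, had 2 peaks in WT replicate 2, both inside neighbouring genes (Plaur and Zfp428).

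Among the 7 secreted and matrix proteins, 3, 5, 2 and 2 genes had a window peak, in lists that reached 45.2%, 53.8%, 40.3% and 8.83% of all genes. Sparc, a matricellular glycoprotein that binds collagen, had 1, 3, 4 and 1 peaks and was the gene with the most peaks in the miR-187 lists. The region chr11:55428213-55428882, about 8 kb before the start site, had a fold of 7.24 in WT replicate 2 (rank 930 of 12298), 5.61 in miR-187 replicate 1 (rank 3400 of 7496) and 4.73 in the second miR-187 list (rank 1200 of 1483). WT replicate 1 had no peak there. Just after the start, chr11:55419615-55420097 had a fold of 4.95 in WT replicate 1 (percentile 49.2) and 6.47 in miR-187 replicate 1 (percentile 84.4). Beyond the 3′ end, chr11:55386505-55386794 had a fold of 6.12 in WT replicate 2 and 5.88 in miR-187 replicate 1. Each of these 3 regions was thus seen in both groups. The remaining Sparc peaks were 15627 bp below the gene in miR-187 replicate 1 (fold 6.41, percentile 71.4) and 10128 bp before the start in WT replicate 2 (fold 3.68, percentile 1.84).

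Fstl1, a secreted follistatin-like glycoprotein needed for valve development, had a peak in every list, at 2 intragenic regions. The region chr16:37814244-37814867 had a fold of 7.61 in WT replicate 1 (percentile 95.1), 5.26 in WT replicate 2 (percentile 60.9) and 4.79 in miR-187 replicate 1 (percentile 18.6). The region chr16:37788423-37788888, about 12 kb after the start, had no WT peak, and its fold in miR-187 was 5.28 for replicate 1 (percentile 55.0) and 5.92 for replicate 2 (percentile 67.5). It was the only one of the 77 regions with a peak in both miR-187 lists and neither WT list, against 0.146% of the 17773 regions in windows of all protein-coding genes.

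Thbs1, which encodes the angiogenesis inhibitor thrombospondin, had 1 peak, 635 bp below its lower boundary, in WT replicate 1 (fold 6.85, rank 482 of 9452), and none in the deeper WT replicate 2. Edn1, the precursor of the vasoconstrictor endothelin, had 1 peak, in WT replicate 2, 58 bp before its start site (fold 5.14, percentile 65.9). Srpx2, a secreted protein of the angiogenic response, had 1 intragenic peak and Loxl2, a matrix cross-linking oxidase, had 2 flanking peaks, all in WT replicate 2 (strongest folds 5.24 and 5.16).

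The 8 transcription factors had a window peak at 5, 8, 4 and 2 genes, against all-gene shares of 45.2%, 53.8%, 40.3% and 8.83%. All 8 were in WT replicate 2. Klf4, a shear-responsive factor of quiescent endothelium, held the only one of the 77 regions with a peak in all 4 lists. It lies at chr4:55514770-55515189, about 17.6 kb after the start site and beyond the 3′ end. With WT the fold was 6.4 (replicate 1) and 5.62 (replicate 2), and both miR-187 libraries had a fold of 7.24. The ranks were 1832 of 9452, 3219 of 12298, 1114 of 7496 and 99 of 1483, which are percentiles of 80.4, 73.7, 85.1 and 93.2. Both miR-187 percentiles were above both WT percentiles at this site, in lists of different lengths. The spread of the 4 summits was 101 bp. Their pileups were 10, 17, 10 and 10 reads. Inside Klf4 itself there was 1 peak, 2067 bp after the start in WT replicate 2 (fold 3.53, percentile 19.6), and none of the 4 lists had a peak over its promoter window.

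Mef2c, a MADS-box factor of heart and vessel development, had 4, 3 and 3 peaks in the first 3 lists and none in miR-187 replicate 2, all inside the gene, in 7 regions. The region chr13:83572049-83572565 had a fold of 5.83 in WT replicate 1 (percentile 74.3) and 4.38 in WT replicate 2 (percentile 30.0), with no miR-187 peak, and its summits were 1374 and 1458 bp before an internal start site. In the opposite direction, chr13:83518306-83518659 had a fold of 6.55 in miR-187 replicate 1 (percentile 75.8) and 4.83 in WT replicate 2 (percentile 42.1). The strongest Mef2c peak of any list was in miR-187 replicate 1 alone, at chr13:83532020-83532285 (fold 7.05, percentile 82.6). About 0.8 kb after the second listed start, chr13:83524270-83524896 had a fold of 3.51 in WT replicate 1 (percentile 1.04) and 4.50 in miR-187 replicate 1 (percentile 14.4). The other 3 regions had 1 WT peak each, with percentiles of 21.6 and 52.4 in replicate 1 and 49.5 in replicate 2.

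Hhex, a homeobox factor of endothelial and endocardial development, had boundary peaks in 3 lists at 2 places. A region 775 to 833 bp after the start, chr19:37435482-37435820, had a fold of 5 in WT replicate 1 (percentile 38.2) and 5.16 in WT replicate 2 (percentile 69.9) with no miR-187 peak. WT replicate 1 had 1 more peak, 18539 bp before the start and inside Kif11, with a pileup of 5 reads. In miR-187 replicate 1 a separate peak lay 35 bp after the start, over the promoter printed above (fold 4.63, percentile 17.4). In 1 miR-187 list the gene thus had a boundary peak, while that list had none in the region of the WT pair.

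Foxc2, a forkhead factor of lymphatic valves, was the only one of the 28 genes that both WT lists reached with a window peak and both miR-187 lists did not, against 9.38% of all protein-coding genes. This call depended on the settings: there was no such gene with equal lists, with windows of 0, 5 or 50 kb or with nearest genes only, and once a −log10 q of at least 5 was asked for there were 3, Axl, Fstl1 and Stard13, without Foxc2. The WT peaks of Foxc2 were at different places, 2769 bp below the gene in WT replicate 1 (fold 5.45, percentile 65.2) and 6783 bp above it in WT replicate 2 (fold 5.93, percentile 72.2), the second nearer to Foxl1. None of the 28 genes showed the opposite, which 0.16% of all genes did.

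Sox18, a SoxF factor of vascular development, had peaks in 3 lists, all nearer to other genes. A region about 10 kb below it had a fold of 5.22 in WT replicate 2 (percentile 70.8) and 4.69 in miR-187 replicate 2 (percentile 22). The other Sox18 peaks were 6673 bp below the gene in WT replicate 2 (percentile 4.60) and 7334 bp above it in WT replicate 1 (percentile 63.0). Nr2f2, which sets venous identity, had an intragenic region at chr7:70361562-70361956 with a fold of 6.25 in miR-187 replicate 1 (percentile 82.0) and 4.36 in WT replicate 2 (percentile 34.0). Its other peaks were in WT replicate 2, 3454 bp before the start (fold 5.86, percentile 60.6) and 5713 bp beyond the 3′ end (fold 3.97, percentile 10.9). Zeb1, a repressor active in endothelial-to-mesenchymal transition, and Hey1, a Notch target, had 2 peaks each, in WT replicate 2 alone. The strongest were at percentile 85.3 for Zeb1, inside the gene and 63.4 kb from its upper boundary, and at percentile 8.09 for Hey1. The other peak of each was a boundary peak. It lay 292 bp inside the lower boundary of Zeb1 (fold 4.20) and 811 bp above the upper boundary of Hey1 (fold 3.28).

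Of the 4 intracellular regulators, 2, 3, 3 and 0 had a window peak, against the same all-gene shares of 45.2%, 53.8%, 40.3% and 8.83%. Stard13, a GTPase-activating protein, had a region inside the gene, chr5:151368497-151369170, with a fold of 6.25 in WT replicate 1 (rank 1516 of 9452), 8.43 in WT replicate 2 (rank 120 of 12298) and 5.98 in miR-187 replicate 1 (rank 2681 of 7496). The fold in WT replicate 2 was the highest of all 106 window peaks and had a pileup of 29 reads. WT replicate 2 also had a Stard13 peak 85 bp before an internal start site (fold 4.96, percentile 45.9), and WT replicate 1 had one inside the gene at chr5:151183820-151184034 with a pileup of 5 reads (fold 4.41, percentile 17.7). Towards the lower end of the gene, WT replicate 2 (fold 3.95) and miR-187 replicate 1 (fold 5.43) had peaks close together that did not overlap. Ptpn1, a phosphatase that acts on insulin and VEGF receptors, had peaks around the internal start printed above in 3 lists, with summits 53 bp after it in WT replicate 1 (fold 5.15), 385 bp after it in WT replicate 2 (fold 3.45) and 173 bp before it in miR-187 replicate 1 (fold 5.29). The first and the last overlapped and the WT replicate 2 peak did not. The strongest Ptpn1 peak was 10358 bp after that start in WT replicate 1 (fold 6.25, percentile 88.2), with no peak of another list there. WT replicate 2 had 1 more, 5673 bp below the gene (fold 4.05, percentile 24.3). Rhoj, a small GTPase of endothelial cells, had a peak 32 bp after its start in WT replicate 2 (fold 4.66) and a separate one 1495 bp after it in miR-187 replicate 1 (fold 5.16).

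**Figure D3:**
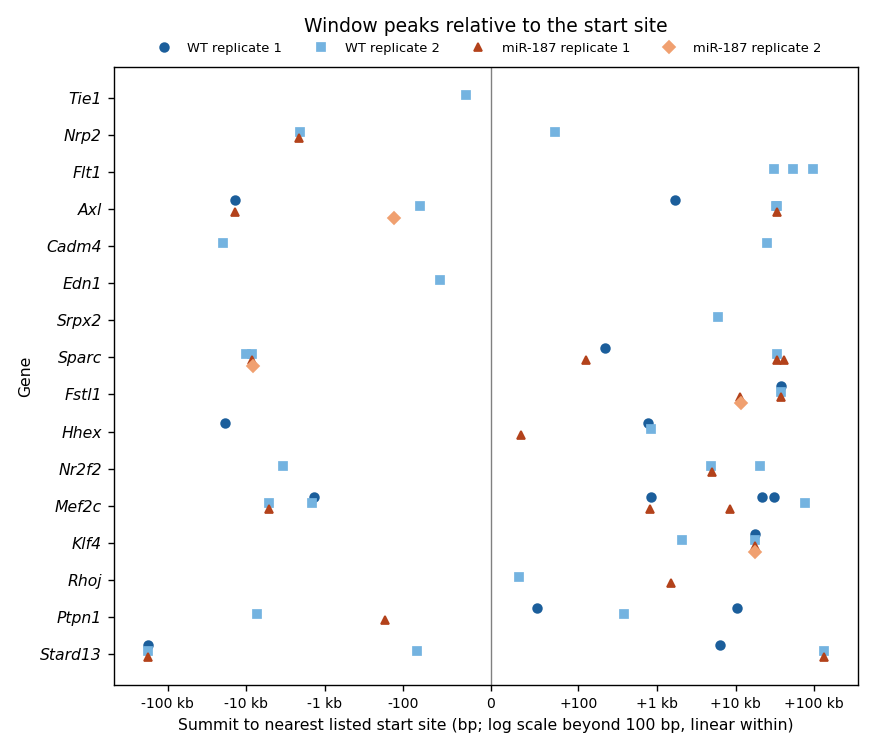
Distance from each summit to the nearest listed start site (x axis, log scale beyond 100 bp and linear within) for the 16 genes (y axis) that had both a promoter entry and a window peak. Negative values are upstream, symbols mark the 4 libraries and overlapping symbols are summits at nearly the same place. Of the 70 peaks drawn, 17 lie within 1 kb of a start site, and the 4 Klf4 summits about 17.6 kb after the start come from all 4 libraries.

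By start site, 10 of the 16 genes with both a promoter entry and a window peak had a summit within 1 kb of a listed start (62.5%), close to the 62.7% of all 11302 such genes. The peaks concerned were 4 of 15 and 8 of 32 in the WT lists and 4 of 19 and 1 of 4 in the miR-187 lists. Over all such genes 35.0%, 37.4%, 39.0% and 34.1% of window peaks lay that near to a start, in the same order of libraries. Of the 20 promoter windows, WT replicate 1 had a peak over 1 (11.6% of all promoter windows in that list) and WT replicate 2 over 6 (18.5%). The miR-187 lists had peaks over 3 (11.5%) and 1 (1.5%). With WT these were the windows of Ptpn1 (replicate 1) and of Nrp2, Tie1, Stard13, Axl, Rhoj and Edn1 (replicate 2), and with miR-187 those of Ptpn1, Sparc and Hhex (replicate 1) and of Axl (replicate 2).

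Most regions were seen once. Of the 77 regions, 55 (71.4%) had a peak in 1 list, 16 (20.8%) in 2, 5 (6.49%) in 3 and 1 (1.3%) in all 4. Over the windows of all protein-coding genes these shares were 64.7%, 21.7%, 12% and 1.54%. WT replicate 2 alone held 34 of the single-list regions, WT replicate 1 alone 15, miR-187 replicate 1 alone 6 and miR-187 replicate 2 alone 0. In the windows of all protein-coding genes these were 5210, 3543, 2233 and 517 of 11503 single-list regions. The 5 regions in 3 lists were those of Acvrl1, Cdh5, Fstl1, Sparc and Stard13 given above. A peak of both WT lists and of neither miR-187 list lay in 3 regions, at Hhex, Mef2c and the Hsbp1 side of Cdh13, against 9.37% of all regions in gene windows. There were 0 such regions with equal lists, 2 with nearest genes only and 5 with a 50 kb window.

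Of the 13 genes with a window peak in both WT lists, 10 (76.9%) had one in the first miR-187 list and 6 (46.2%) in the second, not always at the same place. For all protein-coding genes with a window peak in both WT lists these shares were 72.2% and 15.8%. In 18 regions a peak of each group was found, and the mean fold was higher in miR-187 at 11 of them and higher in WT at 7. Over all gene windows 56.6% of 4579 such regions had the higher fold in miR-187. Fold depends on the background of each library, so the percentiles are given too, and by percentile miR-187 was higher at 8 of the 18 (44.4%) and WT at 10. Over all gene windows miR-187 had the higher percentile in 44.0%, close to the share at the 28 genes.

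**Figure D4:**
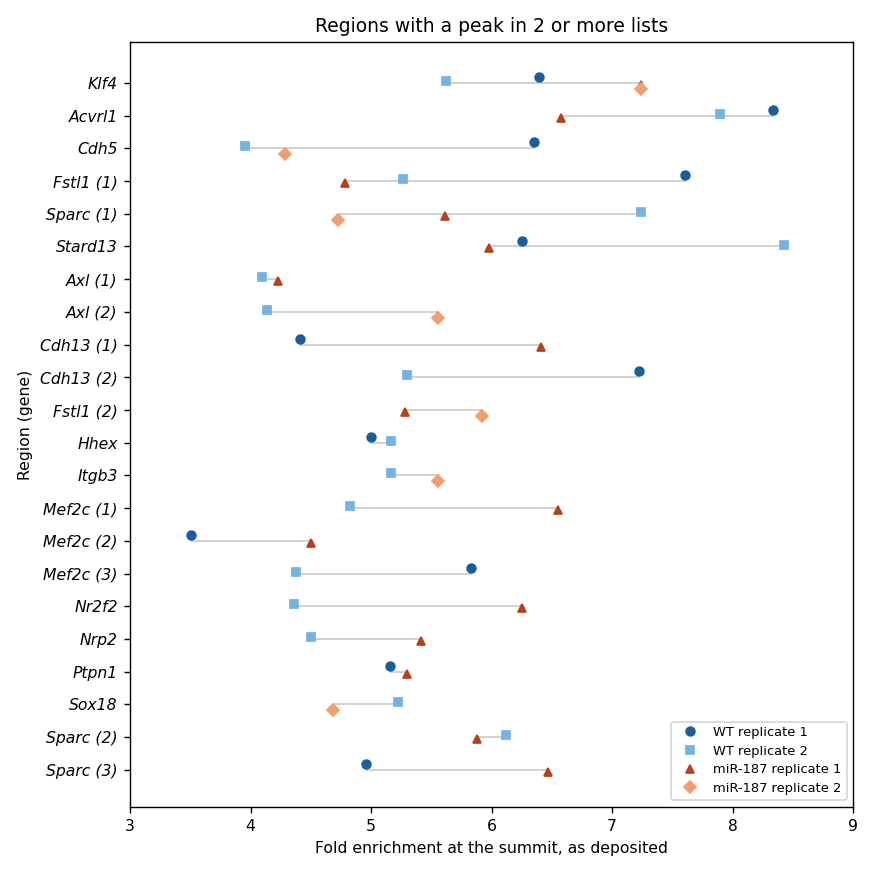
Deposited fold enrichment (x axis) in each library that had a peak, for the 22 regions with a peak in 2 or more lists (y axis, numbered where a gene has several, in order of the number of lists and then position). Symbols mark libraries and lines join the values of a region. Klf4 is the only row with 4 symbols (the miR-187 pair overlaps at 7.24), and the Hhex row, 1 Cdh13 row and 1 Mef2c row hold WT symbols only.

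By strength, the window peaks of WT replicate 1 lay between percentiles 1.04 and 99.1 and those of WT replicate 2 between 0.516 and 99.0. In the miR-187 lists the range was narrower, 11.7 to 85.8 for replicate 1 and 6.44 to 93.2 for replicate 2. The percentile of −log10 q at the median window peak was 49.4 and 45.9 in the WT lists and 63.8 and 54.3 in the miR-187 lists, where 50 is the middle of a list. The mean over 2 libraries was 47.7 ± 2.5 for WT and 59.1 ± 6.7 for miR-187 (± SD), which is 11.4 points higher (exact permutation p = 0.333). This difference turned to -14.5 points once a −log10 q of 5 or more was asked for and to -36.0 points with an equal number of peaks per list. Above the percentile of 90 lay 5 of 27 and 3 of 51 window peaks of the WT lists and 0 of 21 and 1 of 7 of the miR-187 lists. Median pileups were 10, 13, 10 and 7 reads, and the lowest were 5, 7, 8 and 5. Peaks in regions found in 1 list had a median percentile of 42.4, those in 2 lists 54.7, those in 3 lists 83.6 and those in 4 lists 82.7, with 55, 32, 15 and 4 peaks.

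**Figure D5:**
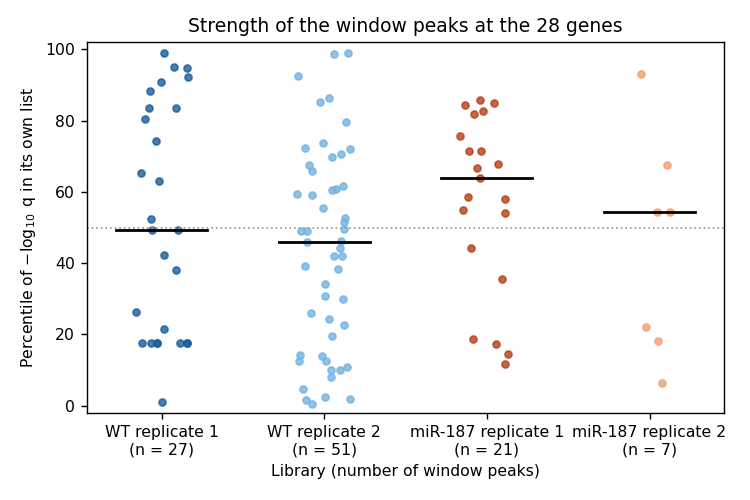
Each point is 1 window peak, placed by its percentile of −log10 q within its own list (y axis) and its library (x axis, with the number of peaks). Bars mark medians (49.4, 45.9, 63.8 and 54.3) and the dotted line marks 50, and every list spreads widely around it.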

How the data were processed

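ATAC-seq peak lists of 4 newborn mouse heart libraries were used, 1 per library and not pooled. According to the submitters' processing notes, reads were aligned with Bowtie2 2.2.6 to mm10 and handled with SAMtools 1.10, deepTools 3.3.2 and MACS2 2.2.7.1. The handling of duplicate and mitochondrial reads, any shift of read ends and any control are not given in the sources used here. Each deposited list gave a fold enrichment over background (a ratio), a −log10 p-value and a −log10 q-value per peak, as the authors' peak caller made them. These values were ranked within a list only.

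Genes were the 21883 protein-coding entries of RefSeq GRCm38.p6 on chromosomes 1 to 19, X and Y, and the 6, 20, 6 and 0 peaks on scaffolds were left out. The table gives no strand, so boundaries are called lower and upper, and start sites came from the RefSeq promoter table. A boundary peak had its summit within 1 kb of either boundary. Pileup and background were inferred from fold = (pileup + 1)/(background + 1) and a Poisson p-value. A fit within 0.0005 in −log10 p was found for at least 99.99% of peaks in each list. Where several fitted, one whose background was a whole number of reads of 200 bp over the caller's local window was taken. The lowest background of a list, divided by 200 bp, gave its density. The solver and counting functions were tested on simulated data.

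Groups came from the sample titles. The members are genes of the study's RT-qPCR list and no accessibility value enters their rule, but they, the gene lists and the tests were chosen with earlier results of these data known. The study had started from genes whose mRNA fell with miR-187 in endothelial cells derived from human embryonic stem cells and was restored by NIPBL. It narrowed these to genes with binding of NIPBL and of an active histone mark in those cells. It reports that most of the list was lower by RT-qPCR in the knock-in mice. The members were thus chosen for a fall of mRNA with miR-187. The effect of these choices on the share of members with a window peak and on the group differences was not tested. Group means were compared with 2-sided exact permutation tests over the 6 assignments of libraries. Genes were described in full if they had a window peak in 3 or 4 lists, a boundary peak in both WT lists, or a window peak in both lists of 1 group and neither of the other (13 genes), and the rest by counts and strongest peaks. Promoter, nearest-gene and region-sharing counts were described without a test. The work was done in Python 3.11.15 with scipy 1.17.1, pandas 2.3.3, numpy 2.4.6, matplotlib 3.10.9 and statsmodels 0.14.6.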

Additional observations from a re-analysis of the deposited data

How the results depend on the processing

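With 2 libraries per group no difference could pass 0.05 in any setting. Taking an equal number of peaks per list turned the difference (miR-187 minus WT) to 1.5 for genes with a window peak, 1.5 for window peaks, 0.5 for genes with a boundary peak, -36.0 for the median percentile and 6.86 points for the share relative to all genes. A −log10 q of at least 5 turned the median percentile to -14.5, and a window of 50 kb turned the relative share to 1.48 points. The other settings among these kept direction, and thinning to the lowest background density left differences of -1.23 genes and -2.03 window peaks. Thinning matched only the background density inferred from each list and was applied to peaks already called. The cause was not tested.

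The regions that only the WT pair shared numbered 0 with equal lists and 5 with the 50 kb window, and the opposite kind numbered 0 at the −log10 q of 5. Genes of the Foxc2 kind numbered 3 at that −log10 q, and 0 with equal lists, with windows of 0, 5 and 50 kb and with nearest genes only. The number of WT minus miR-187 lists with a window peak became -1 for Mef2c at the −log10 q of 5, and with equal lists it became -1 for Mef2c, Sox18, Axl and Sparc and -2 for Klf4. For the 13 genes described in full, 62 of 130 such values stayed equal, over the settings run for them and the removal of each library in turn. Removing a library that has a peak at a gene changes this value by construction.

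Leaving out each library in turn gave -15.0 to -4.0 genes, -37.0 to -13.0 window peaks, -8.0 to -2.0 genes with a boundary peak, 6.66 to 16.2 points of median percentile and -24.3 to 6.35 points of relative share, which turned positive without WT replicate 2. The WT-only regions then ran from 4 to 37, the miR-187-only regions from 1 to 7 and the genes of the Foxc2 kind from 2 to 9, the highest without WT replicate 1 (37 and 9) and without miR-187 replicate 2 (7).

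In the labels the same-numbered libraries share only a number, and a shared litter or batch is not given. The correlation of their deviations over 20919 regions was -0.025. With 2 libraries per group this value does not show whether they were paired. With the replicate block the differences stayed at -9.5 genes, -25.0 window peaks, -5.0 genes with a boundary peak, 11.4 points and -8.98 points, with exact sign-flip p of 0.5 at the smallest and 1 for the last. Depth limits every absence: the lowest pileup in a list was 4, 7, 5 and 4 reads.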
